A study of Mus musculus with 90 samples.

Results

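Livers lacking insulin receptor substrate 1 (IRS1) and IRS2 in hepatocytes were compared with livers of floxed control mice, all from fed mice that had received the synthetic glucocorticoid dexamethasone (dex). The members of the comparison were taken by their labels, 4 L-IRSdKO mice (liver-specific Irs1 and Irs2 double knockout) and 4 floxed mice, which are 8 of the 54 RNA libraries and of the 90 samples of the series. The series asks how feeding changes transcription in the liver, and how glucocorticoid and insulin signals contribute to that change. Every library here came from the liver of a single mouse.

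All 8 mice carried loxP-flanked alleles at both loci (Irs1 fl/fl, Irs2 fl/fl) on a background that the labels call C57BL/6 and the study's methods C57BL/6J. The L-IRSdKO mice also carried Alb-Cre, a Cre recombinase driven by the albumin promoter and used to delete genes in hepatocytes, whereas the floxed mice are listed without it and labelled wild type. Per the study's methods, mice entered night-restricted feeding (NRF, food only in the dark phase) at 10 weeks of age. Dex (1 mg/kg) was injected intraperitoneally 30 minutes before lights off at zeitgeber time (ZT) 12, food was given at ZT12, and livers were taken at ZT14. Because both groups were fed and both received dex, the pair holds no unfed and no vehicle-injected liver, and differences between the groups apply to that state only. Alb-Cre and the 2 deletions were present in the same mice, so that their effects cannot be told apart. Direct and later effects of the lasting deletions cannot be told apart either. The labels do not give the sex of the mice.

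Insulin binds its receptor, a tyrosine kinase that phosphorylates IRS1 and IRS2. The phosphorylated IRS proteins recruit phosphatidylinositol 3-kinase, which leads to activation of AKT, and AKT phosphorylates the FOXO transcription factors so that they leave the nucleus. In the fed liver this pathway is known to lower transcription of genes for glucose output and to raise transcription of SREBP1c and the genes for fatty acid synthesis. Glucocorticoids act on the same tissue through the glucocorticoid receptor (GR), which is known to raise genes of gluconeogenesis and amino acid breakdown.

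Expression is given as RPKM (mapped reads per kilobase of transcript, scaled to library size), and differences as log2 fold changes of L-IRSdKO against floxed mice on the log2(RPKM + 0.5) scale with their standard error (SE), where the added 0.5 makes the change of low genes look smaller. A gene was said to rise or fall when the limma test across all genes gave a Benjamini-Hochberg adjusted p below 0.05. The steps between low RPKM values imply that 1 RPKM on a transcript of 1 kb stands for 3.65 to 4.49 reads in these libraries, so that levels below 1 RPKM rest on few reads. The highest value in any of the 8 libraries was between 674 and 914 RPKM, whereas the highest value of the other 46 RNA libraries lay between 18853 and 60597 RPKM. The 77 RefSeq transcripts that were above 1000 RPKM in dex-injected wild-type livers had a median of 1828 RPKM there and of 393 RPKM in the floxed mice. Levels were therefore compared only inside the pair, and differences of very abundant transcripts may be understated, although 28.3% of the 173 genes between 200 and 1000 RPKM still passed the test, against 9.46% of the 2262 genes between 0.5 and 2 RPKM.

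The library labelled L-IRSdKO replicate 1 stood apart from the other 3 of its group. On the 3019 genes called without it, its level lay at a median of 46.9% of the distance from the floxed mean to the mean of the other L-IRSdKO mice, with quartiles of 20.2% and 75.4%. A like measure was 107%, 105%, and 107% for L-IRSdKO replicates 2, 3, and 4, each judged on the 1075, 1158, and 1135 genes called without it. Their reference means include replicate 1 and their gene sets are smaller, so that these values are not fully comparable with that of replicate 1. The deviations of replicate 1 from the mean of all libraries correlated with those of its own group at r = -0.09 to -0.04. With those of the floxed mice they correlated at r = -0.23 to -0.16. Deviations of replicates 2 to 4 correlated among themselves at r = 0.39 to 0.47, and those of the floxed mice at r = 0.14 to 0.32. All these values are across genes that are not independent. Why this library differs was not tested, and the results below are given for all 8 mice and, where it matters, without it.

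Irs1 (RefSeq NM_010570, chr1:82229676-82287991 on the minus strand of mm9) was low in all 4 L-IRSdKO mice. It measured 2.21, 4.70, 4.73, and 4.50 RPKM in floxed replicates 1 to 4 and 0.149, 0.155, 0.321, and 0.170 RPKM in L-IRSdKO replicates 1 to 4. The groups did not overlap, and the log2 fold change was -2.66 (SE 0.25, adjusted p = 0.000942, 6.30-fold lower). The library labelled L-IRSdKO replicate 1 thus had as little Irs1 as the others of its label. Irs2 (chr8:10986980-11008458, mm9), whose transcription insulin is known to lower, measured 0.614, 1.63, 5.61, and 0.929 RPKM in floxed and 0.272, 1.00, 0.932, and 0.886 RPKM in L-IRSdKO mice. Its groups overlapped, and it did not pass the test (log2 fold change -0.79, SE 0.50, adjusted p = 0.307), so that the deletion of Irs2 could not be seen in these transcript levels. Foxo1, the main FOXO factor of hepatocytes and a gene named here after its values were seen, measured 18.3, 17.8, 17.0, and 15.03 RPKM in floxed mice and 3.29, 16.01, 19.9, and 17.8 RPKM in L-IRSdKO mice. L-IRSdKO replicate 1 lay far below the other 7 mice, which overlapped, and the log2 fold change was -0.50 (adjusted p = 0.503), or 0.07 (adjusted p = 0.694) without that library.

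**Figure D1:**
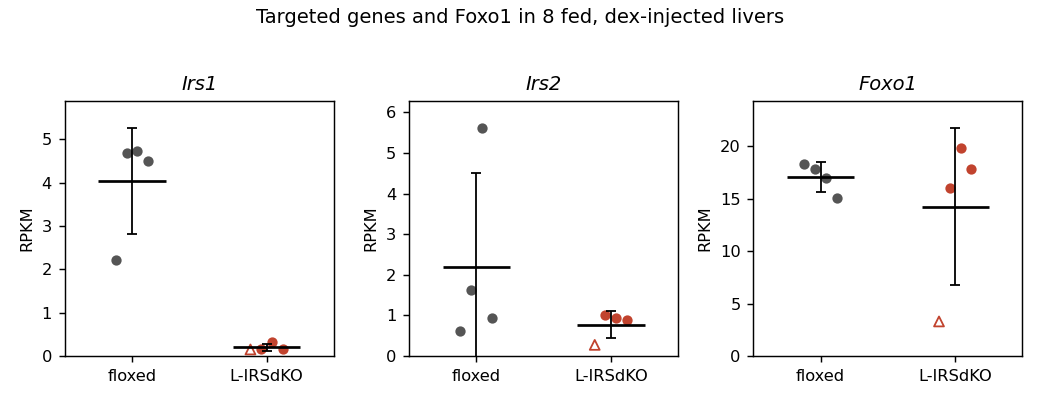
RPKM of Irs1, Irs2, and Foxo1 in each of the 8 mice, with 1 point per mouse, black lines for the mean, and bars for 1 SD (n = 4 per group). The open triangle is L-IRSdKO replicate 1: it sits with its group for Irs1 (0.149 RPKM) and below all other mice for Foxo1 (3.29 RPKM).

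Of 12968 genes tested, 1176 rose (9.07%) and 1079 fell (8.32%), 17.4% together, and 319 and 288 of these changed at least 2-fold. The split was not fixed, with 1055 rising and 1274 falling under median-ratio scaling and 789 and 856 without floxed replicate 3. The median log2 fold change of all genes tested was 0.03. The shares of 9.07% and 8.32% and this median are the background for the counts of each gene list below. The lists were chosen with earlier results of these data known, so that their counts describe the data and are no independent support. Without L-IRSdKO replicate 1, 1516 of 12941 genes rose (11.7%) and 1503 fell (11.6%, 23.3% together), and 2103 genes were called in the same direction in both fits, whereas 152 were called only with all 8 mice. In 1565 genes every L-IRSdKO mouse was above every floxed mouse (12.1%), and in 1251 every L-IRSdKO mouse was below (9.65%). The summed level of 9 hepatocyte markers was 4065 ± 183 RPKM in floxed and 3961 ± 296 RPKM in L-IRSdKO mice (SD, n = 4 each, two-sided exact permutation p = 0.571), and Alb, which drives the Cre, measured between 786 and 909.6 RPKM in floxed and between 649.8 and 914 RPKM in L-IRSdKO mice (log2 fold change -0.21, adjusted p = 0.191). Without L-IRSdKO replicate 1, Alb fell by 0.31 on the log2 scale (adjusted p = 0.013). These are bulk tissue samples, in which fewer cells of a type and less RNA per cell cannot be told apart.

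Igfbp1, which encodes a secreted binding protein of insulin-like growth factors and is a long-known target of FOXO1 in the liver, was 1 of the most changed abundant genes. It measured 28.0, 73.7, 55.6, and 47.4 RPKM in floxed mice and 351, 532, 559, and 509 RPKM in L-IRSdKO mice. The groups lay far apart, with a log2 fold change of 3.30 (SE 0.27, adjusted p = 0.000623, 9.85-fold higher), or 3.45 without L-IRSdKO replicate 1. G6pc, the catalytic subunit of glucose-6-phosphatase that releases glucose from the hepatocyte, measured 118, 189, 110.1, and 171 RPKM in floxed and 277, 285, 278, and 295 RPKM in L-IRSdKO mice. The L-IRSdKO values were close to each other and all above the floxed values (log2 fold change 0.98, SE 0.16, adjusted p = 0.0067, 1.98-fold higher).

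The promoters of 4 genes that rose are shown because they hold the letters of a FOXO-type motif close to the start. They were picked for both the rise and the motif, so that they cannot show whether the 2 go together. The sequences are from RefSeq (GRCm38.p6), cover 250 bases before to 50 bases after the annotated start, and read 5′ to 3′ on the strand of the gene, with the motif in capitals. Igfbp1 (chr11:7197537-7197836) holds CAAAACA on the gene's strand 108 bases upstream of the start. G6pc (chr11:101367466-101367765) holds CAAAACA on the opposite strand 174 bases upstream. Sesn1 (chr10:41810324-41810623) holds GTAAACA on the opposite strand just after the start, and Txnip (chr3:96557707-96558006) holds GTAAACA on its own strand 121 bases upstream.
Igfbp1: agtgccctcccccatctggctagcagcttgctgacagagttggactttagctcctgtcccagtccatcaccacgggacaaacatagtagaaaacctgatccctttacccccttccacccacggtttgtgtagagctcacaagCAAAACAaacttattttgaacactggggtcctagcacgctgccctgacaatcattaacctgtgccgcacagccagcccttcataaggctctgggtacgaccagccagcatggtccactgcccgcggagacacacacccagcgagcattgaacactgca
G6pc: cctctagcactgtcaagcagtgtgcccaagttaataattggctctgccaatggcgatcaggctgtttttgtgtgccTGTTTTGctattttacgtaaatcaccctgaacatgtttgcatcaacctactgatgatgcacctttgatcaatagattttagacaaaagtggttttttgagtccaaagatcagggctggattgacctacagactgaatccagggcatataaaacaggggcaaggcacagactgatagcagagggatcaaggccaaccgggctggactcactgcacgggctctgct
Sesn1: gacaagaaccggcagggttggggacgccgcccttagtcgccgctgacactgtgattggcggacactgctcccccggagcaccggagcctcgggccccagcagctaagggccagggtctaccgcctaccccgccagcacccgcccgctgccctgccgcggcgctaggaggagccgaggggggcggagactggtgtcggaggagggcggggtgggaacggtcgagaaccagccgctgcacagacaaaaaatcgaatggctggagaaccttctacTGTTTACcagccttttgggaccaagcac
Txnip: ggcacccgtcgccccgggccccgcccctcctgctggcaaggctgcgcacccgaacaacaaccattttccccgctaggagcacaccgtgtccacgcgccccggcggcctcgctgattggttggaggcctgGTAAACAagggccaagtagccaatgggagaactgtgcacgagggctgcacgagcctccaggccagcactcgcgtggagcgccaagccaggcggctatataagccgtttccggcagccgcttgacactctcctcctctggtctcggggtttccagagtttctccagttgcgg

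Searched on both strands, CAAAACA was found in 6.28% and GTAAACA in 3.65% of all 32851 promoters of this length, and in 4.47% and 2.70% of the 12664 promoters of tested genes. Among promoters of genes that rose the shares were 5.41% and 3.18%, and among those of genes that fell 3.69% and 1.75%. In the FOXO-linked list, 24 of the 28 genes had a promoter, with 30 promoters in all. Of these promoters, 4 held CAAAACA (13.3%, in Ccng2, G6pc, Igfbp1, and Irs2) and 2 held GTAAACA (6.67%, in Sesn1 and Txnip). Ccng2 and Irs2 did not pass the test, and Pdk4 and Ppargc1a, which rose, are not among the genes with a motif. These matches describe letters in a short window and nothing about binding.

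The list of 28 FOXO-linked genes was drawn from general knowledge of FOXO targets, but with earlier results of these data known. Of these genes 11 rose and 1 fell, with a median log2 fold change of 0.31 against 0.03 over all genes. Without L-IRSdKO replicate 1, 12 rose and 3 fell, and without replicate 3 or 4 of that group 7 rose and 1 fell. Txnip, which encodes an inhibitor of thioredoxin and of glucose uptake, measured 32.6, 41.1, 44.6, and 47.3 RPKM in floxed and 120.1, 223, 313, and 268 RPKM in L-IRSdKO mice. L-IRSdKO replicate 1 was the lowest of its group but above every floxed mouse, and the log2 fold change was 2.39 (SE 0.27, adjusted p = 0.00186). Pdk4, the kinase that blocks pyruvate dehydrogenase in fasting, measured 1.59, 1.59, 1.42, and 1.44 RPKM in floxed and 7.61, 17.5, 40.7, and 51.6 RPKM in L-IRSdKO mice. The floxed values were nearly the same and the L-IRSdKO values spread widely above them, with a log2 fold change of 3.56 (SE 0.51, adjusted p = 0.00431, 11.8-fold higher). Ppargc1a, the coactivator PGC-1α, rose from 4.23 ± 1.66 to 20.4 ± 4.33 RPKM (SD, n = 4 each, log2 fold change 2.18, adjusted p = 0.00204).

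Sesn1, which encodes the stress-induced mTORC1 inhibitor sestrin 1, measured 19.6, 13.7, 10.00, and 10.7 RPKM in floxed and 16.9, 63.1, 83.8, and 76.6 RPKM in L-IRSdKO mice. L-IRSdKO replicate 1 lay inside the floxed range, and the other 3 lay far above it (log2 fold change 1.94, SE 0.47, adjusted p = 0.0242, or 2.46 and 0.0002 without replicate 1). The call was lost on leaving out floxed replicate 2, 3, or 4 or L-IRSdKO replicate 2, 3, or 4, with an adjusted p from 0.0533 to 0.0715. Its relative Sesn2 rose by 1.38 (adjusted p = 0.0217), a call lost without floxed replicate 1 or without L-IRSdKO replicate 2, 3, or 4 (adjusted p up to 0.0662). The autophagy genes Ulk1, a kinase that starts autophagy, and Map1lc3b, a component of the autophagosome membrane, rose by 0.59 (adjusted p = 0.00643) and 0.56 (adjusted p = 0.00334). Fbxo32, the ubiquitin ligase atrogin-1, rose from 0.845 ± 0.355 to 2.71 ± 0.908 RPKM (SD, n = 4 each, log2 fold change 1.24, adjusted p = 0.0193), a low level, and the call was lost without L-IRSdKO replicate 2, 3, or 4 (adjusted p up to 0.0617). Angptl4, an inhibitor of lipoprotein lipase, measured between 124 and 139.9 RPKM in floxed and between 143 and 179 RPKM in L-IRSdKO mice, so that the groups did not overlap but differed only 1.27-fold (log2 fold change 0.34, adjusted p = 0.0225), and the call was lost without floxed replicate 1 or 2 or L-IRSdKO replicate 3 or 4 (adjusted p up to 0.0664). Insig2 (0.10, adjusted p = 0.698), Klf15 (0.08, adjusted p = 0.567), and Pck1 did not pass.

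The member of the FOXO-linked list that fell was Pik3r1, the p85α regulatory subunit of phosphatidylinositol 3-kinase. It measured 45.5, 35.3, 44.5, and 45.1 RPKM in floxed and 22.2, 17.8, 16.5, and 14.7 RPKM in L-IRSdKO mice. The groups were well apart (log2 fold change -1.24, SE 0.14, adjusted p = 0.00177). Among all 28 genes of the insulin pathway 2 rose and 2 fell, with a median of 0.01, where 9.07% of all genes rose and 8.32% fell. The list includes Irs1, which was deleted by design, so that its fall is no response of the pathway. The genes that rose were Trib3, a pseudokinase that binds AKT (3.099 ± 1.64 to 12.5 ± 2.92 RPKM, log2 fold change 1.94, adjusted p = 0.00676), and Rictor, the defining subunit of mTORC2 (6.68 ± 0.907 to 10.6 ± 1.27 RPKM, 0.63, adjusted p = 0.0125), and the genes that fell were Irs1 and Pik3r1. Insr, the insulin receptor, was between 15.4 and 18.6 RPKM in floxed and between 18.7 and 26.2 RPKM in L-IRSdKO mice without overlap, yet missed the threshold (0.35, adjusted p = 0.0637), and passed it without L-IRSdKO replicate 1 (0.42, adjusted p = 0.0247). The AKT genes Akt1 (0.10, adjusted p = 0.558) and Akt2 (-0.01, adjusted p = 0.959) did not pass.

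**Figure D2:**
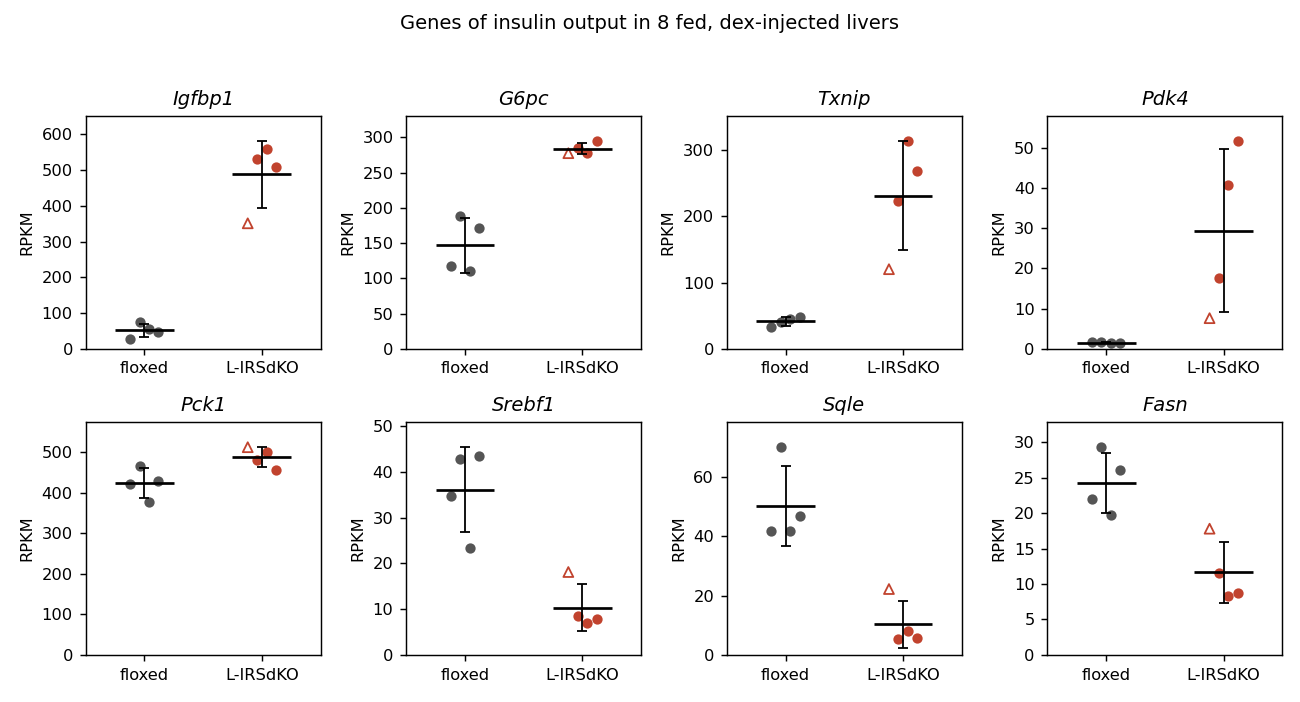
RPKM of 8 metabolic genes in each mouse, with lines for the mean and bars for 1 SD (n = 4 per group) and an open triangle for L-IRSdKO replicate 1. Igfbp1, G6pc, Txnip, and Pdk4 are higher and Srebf1, Sqle, and Fasn lower in all 4 L-IRSdKO mice, with replicate 1 nearest to the floxed mice for most of them, whereas the Pck1 values overlap.

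In gluconeogenesis 5 of 14 genes rose and 1 fell (median 0.18), and 7 rose and 1 fell without L-IRSdKO replicate 1, while none fell without floxed replicate 2, 3, or 4 or L-IRSdKO replicate 2, 3, or 4. Beside G6pc and Ppargc1a, the genes that rose were Got1, the cytosolic aspartate aminotransferase (198 ± 30.6 to 309 ± 23.2 RPKM, log2 fold change 0.65, adjusted p = 0.00645), Sik1, a kinase that restrains CREB coactivators (9.10 ± 2.59 to 24.1 ± 7.21 RPKM, 1.35, adjusted p = 0.00946), and Fbp1, fructose-1,6-bisphosphatase (272 ± 7.27 to 315 ± 19.0 RPKM, 0.21, adjusted p = 0.0339). The Fbp1 difference was small and its call was lost on leaving out any floxed mouse or L-IRSdKO replicate 2 or 3 (adjusted p up to 0.091). Pck1, the cytosolic phosphoenolpyruvate carboxykinase and a target of both GR and FOXO1, measured 423, 467, 377, and 429 RPKM in floxed and 513, 482, 500.1, and 457 RPKM in L-IRSdKO mice. L-IRSdKO replicate 4 lay within the floxed range, and the difference did not pass (log2 fold change 0.21, SE 0.07, adjusted p = 0.0782). At these levels the flattened range of the libraries applies.

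The genes of fatty acid synthesis moved in both directions, with 3 of 19 rising and 8 falling (median -0.42), or 4 and 10 without L-IRSdKO replicate 1. Srebf1, which encodes the insulin-induced transcription factor SREBP1c, measured 34.7, 42.7, 23.4, and 43.4 RPKM in floxed and 18.1, 8.59, 6.90, and 7.82 RPKM in L-IRSdKO mice. No values overlapped, and L-IRSdKO replicate 1 was nearest to the floxed mice (log2 fold change -1.82, SE 0.30, adjusted p = 0.00676, or -2.11 and 0.000321 without it). Fasn, fatty acid synthase, measured 21.97, 29.3, 19.8, and 26.0 RPKM in floxed and 17.8, 11.6, 8.34, and 8.78 RPKM in L-IRSdKO mice, again without overlap (log2 fold change -1.08, adjusted p = 0.0158). Acss2, which makes acetyl-CoA from acetate, fell by 1.15 (adjusted p = 0.00179), Pklr, liver pyruvate kinase, by 1.00 (adjusted p = 0.0137), Slc25a1, the mitochondrial citrate carrier, by 0.63 (adjusted p = 0.0112), and Mlxipl, the carbohydrate-responsive factor ChREBP, by 0.50 (adjusted p = 0.00883) on the log2 scale. Thrsp, a regulator of lipogenesis, measured 403 RPKM in L-IRSdKO replicate 1 and 142, 228, and 113 RPKM in the others against 416 to 515 RPKM in floxed mice (log2 fold change -1.21, adjusted p = 0.0391), a call lost without any other single library (adjusted p up to 0.106).

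In the opposite direction, the acetyl-CoA carboxylase gene Acacb, whose product makes the malonyl-CoA that inhibits fatty acid entry into mitochondria, rose from 8.09 ± 1.70 to 21.0 ± 6.78 RPKM (SD, n = 4 each, log2 fold change 1.28, adjusted p = 0.015). The elongase genes Elovl5 and Elovl6 rose by 1.28 (adjusted p = 0.00924) and 0.78 (adjusted p = 0.0173), the latter losing its call without L-IRSdKO replicate 3 (adjusted p = 0.0533). Scd1, stearoyl-CoA desaturase, varied from 30.7 to 135 RPKM among floxed mice and did not pass (-0.42, adjusted p = 0.57). Angptl8, a feeding-induced secreted inhibitor of lipoprotein lipase, measured 116, 82.2, 68.1, and 81.5 RPKM in floxed and 30.1, 10.2, 13.4, and 10.1 RPKM in L-IRSdKO mice. The groups were apart by more than the spread within either (log2 fold change -2.54, SE 0.33, adjusted p = 0.00318).

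Genes of cholesterol synthesis fell. Of 22 genes tested, 18 fell and none rose, all 22 had a negative log2 fold change, and the median was -0.93. Without L-IRSdKO replicate 1 all 22 fell, with a median of -1.11, and without replicate 3 or 4 of that group 11 fell. Hmgcs1, the remaining member of the list, is listed at 0 in all 8 mice and was not tested. Sqle, squalene epoxidase, measured 41.9, 70.1, 41.7, and 46.7 RPKM in floxed and 22.2, 5.35, 8.001, and 5.60 RPKM in L-IRSdKO mice. The highest L-IRSdKO value, that of replicate 1, was still below every floxed mouse (log2 fold change -2.44, SE 0.40, adjusted p = 0.00664, 5.42-fold lower). The other large falls were Mvd, mevalonate diphosphate decarboxylase (-2.19, adjusted p = 0.0119), Nsdhl (-1.88, adjusted p = 0.0101) and Cyp51 (-1.86, adjusted p = 0.00421), enzymes of the late sterol pathway, and Fdps, farnesyl diphosphate synthase (-1.62, adjusted p = 0.00753). Among the 4 genes that did not pass with all 8 mice were Srebf2, the sterol-sensing transcription factor (22.3 ± 3.68 to 16.6 ± 5.00 RPKM, adjusted p = 0.145), Idi1 (adjusted p = 0.146), and Ebp (adjusted p = 0.114).

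**Figure D3:**
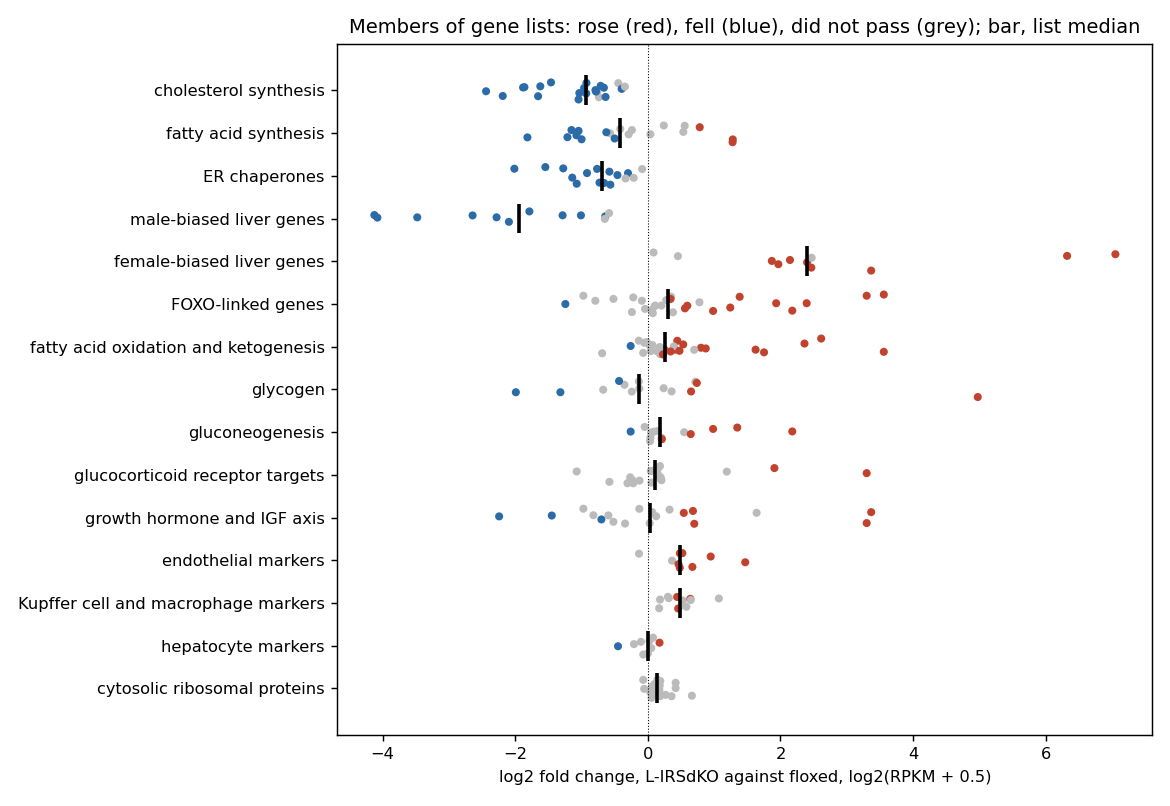
Log2 fold change, L-IRSdKO against floxed, of every tested member of 15 gene lists, with red for genes that rose, blue for genes that fell, grey for genes that did not pass, and black bars for list medians. All tested cholesterol synthesis genes lie left of 0 (median -0.93), the female-biased genes lie right of 0 (median 2.40), and the ribosomal protein genes stay near 0 (median 0.15).

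In fatty acid oxidation and ketogenesis 14 of 29 genes rose and 1 fell (median 0.26), and 14 rose and 2 fell without L-IRSdKO replicate 1, or 8 and 0 without replicate 3 and 9 and 0 without replicate 2 or 4 of that group. Beside Pdk4, described above, genes of the fatty acid ω-oxidation and acyl-CoA thioesterase families were among the larger changes. Cyp4a31 measured 10.3, 8.996, 6.01, and 26.1 RPKM in floxed and 37.8, 93.4, 87.8, and 78.2 RPKM in L-IRSdKO mice. The groups did not overlap (log2 fold change 2.61, SE 0.43, adjusted p = 0.00662). Acot2, a mitochondrial thioesterase, rose from 1.87 ± 0.374 to 11.9 ± 3.33 RPKM (2.36, adjusted p = 0.000943), and its cytosolic neighbour Acot1 from 44.7 ± 9.13 to 81.2 ± 4.70 RPKM (0.87, adjusted p = 0.00527). Ehhadh, the peroxisomal bifunctional enzyme, rose by 0.80 (adjusted p = 0.00435). Smaller rises were seen in Cpt1a, the carnitine palmitoyltransferase that controls entry of fatty acids into mitochondria (120.1 ± 10.9 to 163 ± 11.7 RPKM, 0.44, adjusted p = 0.00969), Acadl (0.41, adjusted p = 0.00768), and Hadhb (0.53, adjusted p = 0.0118). Ppara, the nuclear receptor that governs many of these genes, measured 64.4 ± 7.29 and 63.7 ± 6.86 RPKM and did not pass (-0.01, adjusted p = 0.939). Cyp4a and Acot genes are close relatives, and reads may be split between them.

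Among genes of glycogen metabolism 3 of 14 rose and 3 fell (median -0.13), and the 2 directions fell within 1 family, the subunits that target protein phosphatase 1 to glycogen. Ppp1r3g measured 3.44, 1.36, 0.235, and 0.108 RPKM in floxed and 13.1, 56.9, 51.1, and 78.8 RPKM in L-IRSdKO mice. This was among the largest rises of all genes, without overlap (log2 fold change 4.97, SE 0.69, adjusted p = 0.00421, 31.4-fold higher). Ppp1r3b, the subunit that predominates in the liver, measured 168, 142, 133, and 151 RPKM in floxed and 127, 52.0, 44.1, and 41.8 RPKM in L-IRSdKO mice, with L-IRSdKO replicate 1 just below the floxed mice (log2 fold change -1.32, adjusted p = 0.0221, or -1.68 and 3.81e-05 without it). Ppp1r3c fell by 1.99 (adjusted p = 0.0303), or by 2.55 without L-IRSdKO replicate 1. The calls of Ppp1r3b and Ppp1r3c were lost on leaving out L-IRSdKO replicate 2, 3, or 4 or floxed replicate 1 or 4, and for Ppp1r3c also floxed replicate 2 or 3 (adjusted p up to 0.0662 and 0.0869). Gys2, liver glycogen synthase, rose from 114 ± 11.6 to 182 ± 33.4 RPKM (0.65, adjusted p = 0.0151). Of 18 genes of glycolysis and fructose use 3 rose and 1 fell (median 0.05), among them Pdk4 and Pklr described above.

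Of 20 targets of GR, in groups in which every mouse had received dex, 2 rose and none fell (median 0.11), where 9.07% of all genes rose and 8.32% fell. Without L-IRSdKO replicate 1, 3 rose and 3 fell, where 11.7% and 11.6% of all genes did, and 1 fell without floxed replicate 2 or 3. Tat, tyrosine aminotransferase, measured 514, 525, 461, and 488 RPKM in floxed and 588, 551, 594, and 538 RPKM in L-IRSdKO mice. The groups did not overlap, but the difference was small and missed the threshold (log2 fold change 0.19, SE 0.06, adjusted p = 0.0513). Fkbp5, a co-chaperone of GR, measured 156, 151, 152, and 149.6 RPKM in floxed and 154, 114, 114, and 114 RPKM in L-IRSdKO mice. L-IRSdKO replicate 1 lay among the floxed mice and the other 3 agreed closely below them, so that the gene did not pass with all 8 mice (-0.31, adjusted p = 0.0658) and fell by 0.42 without that library (adjusted p = 0.000602). The genes that rose were Igfbp1 and Sgk1, a kinase related to AKT, which went from 22.2 ± 10.7 to 81.9 ± 23.9 RPKM (1.91, SE 0.34, adjusted p = 0.00804). Tdo2, the tryptophan dioxygenase (0.06, adjusted p = 0.712), Per1, a clock gene with a direct GR response (-0.13, adjusted p = 0.66), Tsc22d3, or GILZ (-0.23, adjusted p = 0.325), and Nr3c1, which encodes GR itself (-0.27, adjusted p = 0.213), did not pass.

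Genes known to differ between the livers of male and female mice changed by large amounts. Of 12 genes with higher expression in males 10 fell and none rose (median -1.94, or -2.44 without L-IRSdKO replicate 1), and 6 fell without replicate 2 or 3 of that group. Of 11 tested genes with higher expression in females 8 rose and none fell (median 2.40, and 5 rose without L-IRSdKO replicate 2 or 4), and 3 members, Cyp3a41a, Sult2a1, and Sult3a1, were too low to be tested. The filter on the mean of all libraries limits what the female-biased count and median show. Genes near 0 RPKM in floxed mice were tested only where L-IRSdKO mice were high, and could hardly fall. Cyp2b9, a cytochrome P450, measured 0.147, 0, 0.145, and 0.266 RPKM in floxed and 16.4, 66.3, 93.2, and 61.4 RPKM in L-IRSdKO mice. Even the lowest L-IRSdKO mouse, replicate 1, was above every floxed mouse (log2 fold change 6.32, SE 0.46, adjusted p = 0.00045, 80.0-fold higher on this scale). Cux2, a transcription factor of the female liver, was at 13.2, 10.9, 9.79, and 10.99 RPKM in L-IRSdKO mice against 0.106 to 1.57 RPKM in floxed mice, and here replicate 1 was the highest of its group (3.37, adjusted p = 0.00177).

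Of the genes higher in males, Hsd3b5, a steroid dehydrogenase, measured 97.4, 39.4, 56.1, and 49.6 RPKM in floxed and 4.25, 1.18, 5.67, and 1.94 RPKM in L-IRSdKO mice. No values overlapped (log2 fold change -4.12, SE 0.42, adjusted p = 0.0013, 17.4-fold lower). Elovl3, a fatty acid elongase, measured 75.2, 86.2, 119, and 63.1 RPKM in floxed and 13.7, 2.27, 7.12, and 1.54 RPKM in L-IRSdKO mice (-4.08, adjusted p = 0.00384). Cyp4a12a fell by 3.48 (adjusted p = 0.00421) and its near copy Cyp4a12b by 2.64 (adjusted p = 0.0129), although reads may be shared between the copies. Slco1a1, an organic anion transporter, measured 71.8 RPKM in L-IRSdKO replicate 1 and 10.3 to 21.6 RPKM in the others against 101 to 112 RPKM in floxed mice (-2.28, adjusted p = 0.0185, or -2.86 and 0.000102 without replicate 1), and its call was lost without L-IRSdKO replicate 2 or 3 (adjusted p up to 0.0545). The male-biased genes Nox4 and Cyp2u1 and the female-biased genes A1bg, Atp6v0d2, and Cyp2a4 did not pass. Cyp2a4 ranged from 1.27 to 79.8 RPKM among the floxed mice alone.

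None of 4 Y-linked genes passed the test. Ddx3y measured 21.0 to 22.6 RPKM in floxed and 21.8 to 23.1 RPKM in L-IRSdKO mice (log2 fold change 0.04, adjusted p = 0.743), and Eif2s3y, Uty, and Kdm5d were present in all 8 mice and did not pass (adjusted p of 0.473, 0.551, and 0.429). Xist, the RNA of the inactive X chromosome, was between 0.018 and 0.111 RPKM in all 8 mice.

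**Figure D4:**
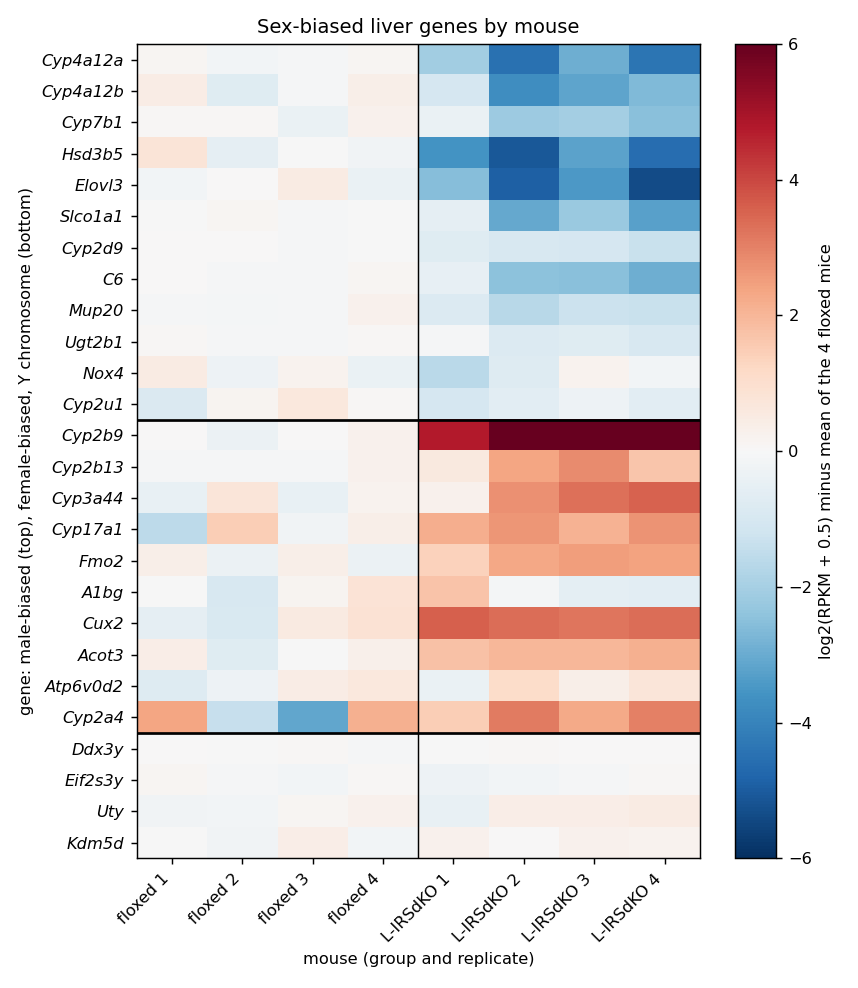
Level of sex-biased liver genes and Y-linked genes in each mouse as log2(RPKM + 0.5) minus the mean of the 4 floxed mice, with red above and blue below that mean and the colour saturated at ±6. The male-biased genes are blue and most female-biased genes red in the L-IRSdKO mice, in replicate 1 less so for most genes, while the Y-linked genes stay near white in all 8 mice.

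Sex-biased genes of the liver are known to follow the pulses of growth hormone, acting through its receptor and STAT5B. Of 19 genes of the growth hormone and IGF axis 5 rose and 3 fell (median 0.03), and 5 rose and 8 fell without L-IRSdKO replicate 1, while 3 rose without replicate 2 and 1 fell without replicate 3 or 4 of that group. Ghr, the growth hormone receptor, measured 142, 131, 133, and 131 RPKM in floxed and 114, 73.5, 77.6, and 70.5 RPKM in L-IRSdKO mice. The groups did not overlap (log2 fold change -0.70, SE 0.14, adjusted p = 0.0128). Igfals, which holds IGF1 in the circulation, measured 75.9, 52.5, 76.6, and 87.4 RPKM in floxed and 49.1, 9.08, 13.6, and 7.70 RPKM in L-IRSdKO mice (-2.24, adjusted p = 0.0183), a call lost without L-IRSdKO replicate 2, 3, or 4 (adjusted p from 0.0508 to 0.055). Igf1 measured 106, 71.3, 77.6, and 86.3 RPKM in floxed and 103, 51.2, 52.6, and 43.1 RPKM in L-IRSdKO mice. L-IRSdKO replicate 1 lay at the top of the floxed range, and Igf1 did not pass with all 8 mice (-0.52, adjusted p = 0.186) but fell by 0.79 without that library (adjusted p = 0.00477). Igfbp2 and Igfbp3, IGF-binding proteins, rose by 0.68 (adjusted p = 0.0112) and 0.70 (adjusted p = 0.0193), and Stat5b, the factor through which the receptor acts, by 0.54 (adjusted p = 0.0199). The Igfbp3 call was lost without L-IRSdKO replicate 2 (adjusted p = 0.06) and that of Stat5b without floxed replicate 4 or L-IRSdKO replicate 2, 3, or 4 (adjusted p up to 0.0633). Bcl6, a repressor that opposes STAT5 in the male liver, measured 27.4 RPKM in L-IRSdKO replicate 1 and 3.59 to 6.21 RPKM in replicates 2 to 4 against 6.69 to 22.5 RPKM in floxed mice, and fell only without replicate 1 (-1.59, adjusted p = 0.0173).

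Outside these lists, several genes of low level in the floxed liver rose. Lepr, the leptin receptor gene, measured 4.93, 4.46, 3.28, and 2.42 RPKM in floxed and 78.6, 193, 198, and 191 RPKM in L-IRSdKO mice. Its groups were far apart (log2 fold change 5.22, SE 0.32, adjusted p = 0.0003, 37.4-fold higher). H19, an imprinted noncoding RNA of the fetal liver, measured 0.120, 0, 0.119, and 0.109 RPKM in floxed and 11.3, 26.1, 19.2, and 20.04 RPKM in L-IRSdKO mice (5.01, adjusted p = 6.45e-05). Tff3, a secreted trefoil peptide, rose by 4.64 (adjusted p = 0.00109), Il1rn, the interleukin-1 receptor antagonist, by 4.15 (adjusted p = 0.00334), and Ntf3, neurotrophin 3, by 4.08 (adjusted p = 0.00421). Gpx3, plasma glutathione peroxidase, measured 5.06, 7.74, 5.54, and 5.73 RPKM in floxed and 11.7, 195, 225, and 224 RPKM in L-IRSdKO mice. For this gene L-IRSdKO replicate 1 was close to the floxed mice, and the log2 fold change was 4.02 (adjusted p = 0.0151) with it and 5.06 (adjusted p = 1.64e-06) without it. The noncoding RNA 3930402G23Rik (chr8:10924427-10928457, mm9) has its start 80.0 kb from that of Irs2 and rose from 0.331 ± 0.367 to 20.3 ± 11.4 RPKM (4.45, adjusted p = 0.00285).

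The largest falls were in C4a, Nat8, and Nat8f5. C4a, which encodes sex-limited protein, a copy of complement C4, measured 57.0, 64.8, 64.6, and 66.7 RPKM in floxed and 2.67, 0.444, 3.96, and 1.09 RPKM in L-IRSdKO mice. No mouse was between the groups (log2 fold change -4.89, SE 0.42, adjusted p = 0.000623, 29.7-fold lower). Cyp21a1, steroid 21-hydroxylase, whose start lies 18.9 kb from that of C4a on chromosome 17, fell from 7.10 ± 2.32 to 0.0707 ± 0.0817 RPKM (-3.69, adjusted p = 0.000403). Nat8 and Nat8f5, N-acetyltransferase genes with starts 11.1 kb apart on chromosome 6, fell by 4.60 (adjusted p = 0.00238) and 4.35 (adjusted p = 0.000479). C4a has a near-identical copy, and the Nat8 genes are a family, so reads may be divided among relatives. Serpine2, a protease inhibitor, fell by 3.92 (adjusted p = 0.00501), Serpina12, the adipokine vaspin, by 3.54 (adjusted p = 0.000942), and Mug2, a protease-binding murinoglobulin, by 3.52 (adjusted p = 0.00309). The miRNA hairpins Mir6921 and Mir7-1 are also among the largest falls, but Mir7-1 is listed at 0 in all 4 L-IRSdKO mice, and values of such short transcripts rest on few reads in poly(A) libraries.

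Chaperones of the endoplasmic reticulum (ER) fell together. Of 16 genes 13 fell and none rose, with a median of -0.69, and 14 fell without L-IRSdKO replicate 1. The count was 6, 7, and 8 without L-IRSdKO replicate 2, 3, and 4 and 7 without floxed replicate 2 or 4, and no gene rose in any of these. Creld2, a secretory pathway factor, measured 171, 252, 144, and 200.1 RPKM in floxed and 119.5, 61.0, 58.0, and 39.8 RPKM in L-IRSdKO mice. The L-IRSdKO values were all lower, with replicate 1 nearest to the floxed mice (log2 fold change -1.54, SE 0.30, adjusted p = 0.0122). Hspa5, the chaperone BiP, fell from 344 ± 33.1 to 235 ± 49.6 RPKM (-0.57, adjusted p = 0.0243, and up to 0.0699 without floxed replicate 2 or 4 or L-IRSdKO replicate 2, 3, or 4), and Hyou1 from 106 ± 24.2 to 45.3 ± 19.3 RPKM (-1.28, adjusted p = 0.015). Xbp1, a transcription factor of the unfolded protein response (-0.21, adjusted p = 0.241), and the chaperone gene Dnajb9 (-0.09, adjusted p = 0.777) did not pass. Of 14 tested genes of the ATF4 response 3 rose and 3 fell (median 0.00), or 1 fell without floxed replicate 2 or L-IRSdKO replicate 2, 3, or 4. Among those that rose was Ddit4, an inhibitor of mTORC1, which rose from 51.1 ± 12.1 to 169.8 ± 59.6 RPKM (1.66, adjusted p = 0.00902). Of 25 cytosolic ribosomal protein genes 0 passed the limma test in either direction (median 0.15), although 6 rose under quantile normalization, and their summed level was 1248 ± 40.6 RPKM in floxed and 1371 ± 90.3 RPKM in L-IRSdKO mice (two-sided exact permutation p = 0.0571).

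In the core clock and its outputs 2 of 17 genes fell and none rose (median -0.13), and 2 rose and 6 fell without L-IRSdKO replicate 1. Over all genes 9.07% rose and 8.32% fell, or 11.7% and 11.6% without that library. Per2, a core repressor of the clock, fell from 31.1 ± 5.74 to 18.2 ± 2.51 RPKM (-0.75, adjusted p = 0.0122), and Bhlhe40, a repressor of clock outputs, from 58.1 ± 10.0 to 33.7 ± 5.86 RPKM (-0.77, adjusted p = 0.0121). In bile acid and sterol export 3 of 16 genes rose and 4 fell (median -0.12). None fell without L-IRSdKO replicate 2, 2 fell without L-IRSdKO replicate 3 or floxed replicate 4, 5 rose and 6 fell without L-IRSdKO replicate 1, and 7 fell under median-ratio scaling. The rises included Klb, a coreceptor of FGF15 signalling (0.89, adjusted p = 0.0158), and Abcg8, a subunit of the sterol exporter (0.80, adjusted p = 0.0142). Cyp7a1, the rate-limiting enzyme of bile acid synthesis, measured 133 ± 36.5 and 83.5 ± 18.4 RPKM and did not pass (-0.66, adjusted p = 0.0604).

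In amino acid breakdown and the urea cycle 3 of 26 genes rose and 3 fell (median 0.06), or 1 fell without L-IRSdKO replicate 2, 3, or 4. Those called include Bckdhb, a subunit of the branched-chain ketoacid dehydrogenase (67.0 ± 1.54 to 97.2 ± 5.87 RPKM, 0.53, adjusted p = 0.00204), and Prodh, proline dehydrogenase (134 ± 20.1 to 73.7 ± 20.8 RPKM, -0.88, adjusted p = 0.0139). For this and the next lists, 9.07% of all genes rose and 8.32% fell, or 11.7% and 11.6% without L-IRSdKO replicate 1. Of 16 cytochromes P450 and regulators of drug metabolism 3 rose and 2 fell (median 0.11), or 6 rose without L-IRSdKO replicate 1, and Cyp1a2, which oxidizes caffeine, fell by 0.62 (adjusted p = 0.0124). Of 15 glutathione and NRF2 target genes 1 rose and 5 fell (median -0.11), but 2 fell without floxed replicate 1, 2, or 3 or L-IRSdKO replicate 2, 3, or 4, and 3 rose without L-IRSdKO replicate 1. Ugdh, UDP-glucose dehydrogenase, fell from 106 ± 11.8 to 48.7 ± 5.79 RPKM (-1.12, adjusted p = 0.00107). In the acute phase list 1 of 19 rose and 3 fell (median -0.16), or 1 and 8 without L-IRSdKO replicate 1, and 1 fell without L-IRSdKO replicate 2, 3, or 4 or floxed replicate 2 or 4, with Orm1, orosomucoid, falling by 0.51 (adjusted p = 0.0095). Of 17 apolipoprotein and lipoprotein genes 1 rose and 2 fell (median 0.00), or 0 and 1 without any 1 of the mice other than floxed replicate 1 and L-IRSdKO replicate 1, and of 13 tested cell cycle genes 1 rose, a call that was lost on leaving out any 1 of the 8 mice.

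Markers of other liver cells also moved. Of 9 endothelial markers 7 rose and none fell (median 0.48), and their summed level was 159 to 190 RPKM in floxed and 215 to 250 RPKM in L-IRSdKO mice, without overlap (ratio of means 1.32, two-sided exact permutation p = 0.0286, the smallest p this design allows). Lyve1, a receptor of sinusoidal endothelium, rose from 6.81 ± 0.974 to 20.4 ± 6.57 RPKM (log2 fold change 1.47, adjusted p = 0.00527), and Cdh5, VE-cadherin, from 8.60 ± 1.88 to 16.8 ± 1.89 RPKM (0.95, adjusted p = 0.00676). Of 12 tested Kupffer cell and macrophage markers 3 rose, and none did without any 1 of the L-IRSdKO mice or floxed replicate 3, 1 without floxed replicate 1 or 2, and 7 without floxed replicate 4, with sums of 381 to 646 RPKM in floxed and 606 to 758 RPKM in L-IRSdKO mice (ratio 1.34, exact p = 0.0571). The sums over markers of stellate cells (ratio 1.23, exact p = 0.0571), lymphocytes (exact p = 0.257), and blood (ratio 0.671, exact p = 0.0857) overlapped or did not pass. Of 4 tested cholangiocyte markers 2 fell, Spp1 and Krt7, and the sum fell from 19.9 to 46.3 RPKM in floxed to 7.999 to 13.97 RPKM in L-IRSdKO mice (ratio 0.327, exact p = 0.0286), most of it from Spp1. Of the markers of adipose tissue, pancreas, and muscle only Cela1 was high enough to be tested, and it fell by 1.42 (adjusted p = 0.00676). The part of these cells in the gene lists above was not tested.

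S961 is a peptide antagonist of the insulin receptor, and wild-type mice of the same series were fed after dex with or without S961 (4 mice each), so that an acute and whole-body block of the receptor can be set beside the lasting loss of its substrates in the liver. The groups share no mouse, but the S961 mice have the wide RPKM range and are of the C57BL/6N strain, so only changes within each experiment are compared. Route of the block, strain, and RPKM range differ together between the pairs and cannot be told apart. S961 changed few genes: of 11187 tested, 144 rose (1.29%) and 59 fell (0.527%), 1.81% together. Of the 144 genes that rose with S961, 64 also rose in L-IRSdKO mice (44.4% of the S961 list and 6.24% of the 1026 genes that rose with the knockout and were tested in both), where 9.19% of all genes tested in both rose. Of the 59 that fell with S961, 19 also fell in L-IRSdKO mice (32.2%, and 1.84% of the 1033 genes that fell with the knockout), where 9.25% of all genes fell. In opposite directions were 4 genes that rose with S961 and fell with the knockout, and 6 that fell with S961 and rose with the knockout.

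The difference of the 2 effects was tested directly in 1 model over the 16 libraries. Of 12434 genes, 568 were higher (4.57%) and 411 lower (3.31%) with the knockout than with S961, 7.87% together, and without L-IRSdKO replicate 1 the shares were 6.43% and 5.27%. The split depended on the scaling, with 442 higher and 592 lower under median-ratio scaling within each experiment and 481 and 500 under quantile normalization. For G6pc the effects were 0.98 and 1.40 and their difference did not pass (-0.42, adjusted p = 0.385), and for Srebf1 they were -1.82 and -1.88 (0.07, adjusted p = 0.95). Igfbp1 rose more with the knockout (3.30) than with S961 (1.37, adjusted p = 0.111), a difference of 1.93 (adjusted p = 0.0283). Ppargc1a rose by 2.18 with the knockout and measured 0.12 with S961 (difference 2.06, adjusted p = 0.00186). Insig2, a brake on SREBP processing, and Angptl4 went the other way: Insig2 rose by 1.41 with S961 and measured 0.10 with the knockout (difference -1.31, adjusted p = 0.00885), and Angptl4 rose by 1.88 with S961 and by 0.34 with the knockout (difference -1.54, adjusted p = 0.0171).

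The sex-biased genes differed between the experiments. None of the 12 male-biased and none of the 8 female-biased genes tested with S961 passed there (medians 0.49 and -0.76). The difference was negative and passed in 9 of 12 male-biased genes, and positive and passed in 6 of 9 female-biased genes. The filter on the mean, here over the 16 libraries, limits the female-biased count again. Genes near 0 RPKM in the other groups entered mainly where L-IRSdKO mice were high, and could hardly come out lower. Cyp2b9 had a difference of 7.81 (adjusted p = 0.000512) and Elovl3 of -5.60 (adjusted p = 0.000621). Among FOXO-linked genes 8 rose and none fell with S961, 2 differed in each direction, and among cholesterol synthesis genes 8 fell with S961 and 5 were lower with the knockout than with S961. For Lepr the effects were 5.22 and 1.56 (difference 3.66, adjusted p = 0.000512).

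**Figure D5:**
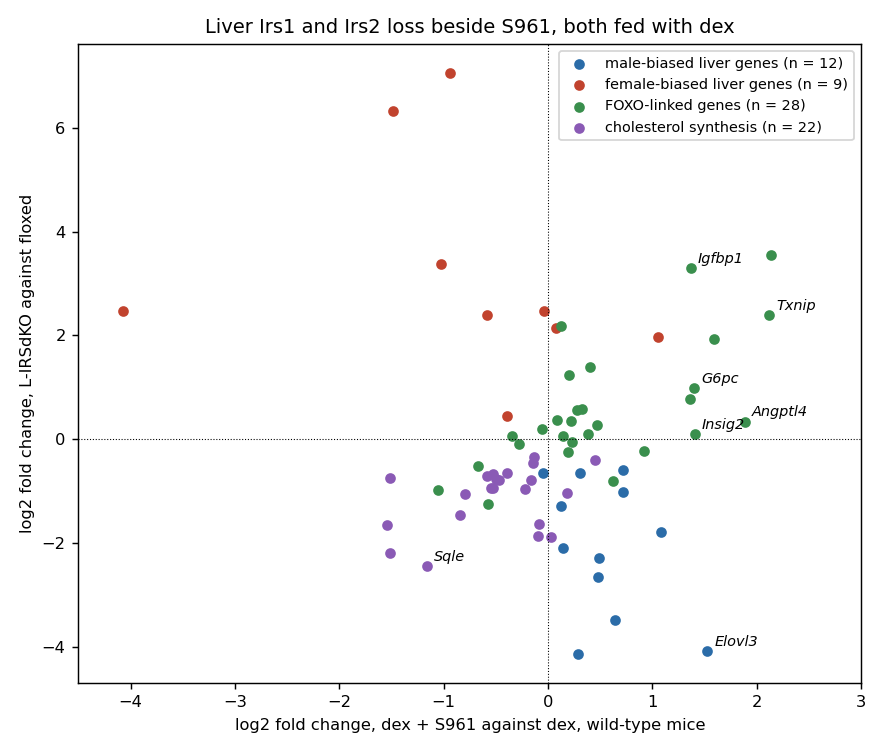
Log2 fold change with the knockout (vertical axis) against that with S961 on dex in wild-type mice (horizontal axis) for genes of 4 lists tested in both. Some FOXO-linked genes with large changes lie at upper right (Txnip at 2.12 and 2.39), whereas Ppargc1a lies high but near 0 with S961, and Pik3r1 lies below 0 on the vertical axis. The cholesterol synthesis genes lie mostly at lower left, and the male- and female-biased genes away from 0 mainly along the vertical axis.

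Peak lists from wild-type livers were used to describe where FOXO1 and GR bind near these genes. The lists hold 8546 FOXO1 and 10446 GR peaks found in unfed livers and 83592 DNase hypersensitive sites (DHSs), as mm9 positions without heights, and no binding was measured in L-IRSdKO mice. Within 50 kb of the start of a gene, a FOXO1 peak was found for 53.6% of 1142 genes that rose, 60.9% of 1037 that fell, and 47.3% of genes not called. For GR the shares were 50.3%, 66.0%, and 43.5%. For both factors the share was higher among genes that fell than among those that rose, and a DHS lay near 99.0% and 99.7% of them. The centre of the nearest FOXO1 peak was 33 bp from the start of G6pc, 50 bp from that of Sesn1, 133 bp from that of Txnip, 320 bp from that of Pdk4, and 3044 bp from that of Igfbp1, whereas it was 18097 bp away for Srebf1 and 68956 bp away for Sqle. The genes with distances are examples, and among all called genes the FOXO1 share was higher for those that fell. The shares were not matched for the level of the genes, and no test was made.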

How the data were processed

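Poly(A) RNA from the livers of 8 mice was sequenced by the authors, 4 per group, and each library is 1 mouse. The authors mapped reads to mm9 with STAR, made RPKM values per RefSeq transcript, and deposited 1 table of 54 libraries, all of whose value columns were assigned. Further steps that made the values, and the reason why the range of these 8 libraries is flattened, are not given in the sources used here. Raw counts were not used here. Steps between the deposited RPKM values of intronless transcripts imply that 1 RPKM on 1 kb stands for 3.65 to 4.49 reads, a shallow depth. The study's own sequencing summary lists higher totals for each of these libraries, and the difference was not resolved here. With HOMER, DNase hypersensitive sites were called on combined reads, and the FOXO1 and GR peaks are those shared by replicates.

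Of 35707 RefSeq transcripts, 35407 had a symbol (24312 symbols), and the transcript with the highest mean over the 8 libraries was kept per symbol. Genes whose mean over the 8 libraries reached 0.5 RPKM were tested on log2(RPKM + 0.5) with limma 3.58.1 in R 4.3.3, with a variance trend, no block, and a Benjamini-Hochberg adjusted p under 0.05 over all genes tested. Every adjusted p in the text is from limma. A second limma model over 16 libraries tested the difference between the knockout effect and the S961 effect in dex-injected wild-type mice. Summed marker levels were compared with a two-sided exact permutation test over mice, whose smallest p is 0.0286. Gene positions are from GENCODE (mm9), promoters from RefSeq (GRCm38.p6), and Python 3.11.15, pandas 2.3.3, and numpy 2.4.6 were used for the remaining steps. In a simulation of the 4 against 4 comparison with 200 of 12968 genes changed, 56% of changes of 1 and 89% of changes of 2 on the log2 scale were recovered, and 3.97% of calls were unchanged genes. The simulated noise was independent between genes and no simulated library lay between the groups. These shares therefore do not measure the error rate of the real fit.

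The members and gene lists were chosen with earlier results of these data known. Genes named are Irs1 and Irs2, 15 fixed genes (Irs1, Irs2, Igfbp1, G6pc, Pck1, Insig2, Angptl4, Tat, Fkbp5, Klf15, Ulk1, Srebf1, Fasn, Igf1, and Alb), up to 6 called members of each list with the largest change and up to 3 of the highest level that did not pass, and the 15 largest rises and 15 largest falls without overlap and with a mean of at least 1 RPKM in the higher group. Named outside this rule, after their values were seen, are Acadl, Akt2, Bcl6, Ccng2, Cpt1a, Cyp7a1, Ehhadh, Elovl6, Fbxo32, Foxo1, Hadhb, Hspa5, Idi1, Igfbp2, Insr, Map1lc3b, Mlxipl, Nr3c1, Per1, Ppara, Scd1, Slc25a1, Stat5b, Tsc22d3, Uty, Xist, and the members that could not be tested. Some list members are not reported here.

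Replicate numbers are shared by the groups, but deviations of same-numbered mice from their group means correlated at -0.061, -0.0532, 0.0635, and -0.0277 across genes, so the numbers were not taken to pair mice. Alternatives were other pseudocounts, filters, scalings, variance priors, transcript choices, library weights, a block, and leaving out each library. No 2 libraries held identical values.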

Additional observations from a re-analysis of the deposited data

Results flagged for a closer look

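Among the values of the fixed genes, 6 lay far from the other 3 mice of their group by Dixon's ratio, which flags about 1 in 20 groups by chance. Irs1 was 2.21 RPKM in floxed replicate 1 and 0.321 RPKM in L-IRSdKO replicate 3. L-IRSdKO replicate 1 held the other 4, with 0.272 RPKM for Irs2, 154 RPKM for Fkbp5, 18.1 RPKM for Srebf1, and 103 RPKM for Igf1. Over all 228 genes whose 8 values were examined in this way, L-IRSdKO replicate 1 was the outlying mouse in 27, against 1, 1, and 3 genes for L-IRSdKO replicates 2, 3, and 4 and 3 to 5 for each floxed mouse. In 3 of its 4 fixed genes (Fkbp5, Srebf1, and Igf1) its value lay toward the floxed mice, and for Irs2 it lay away from them. What sets this library apart was not tested.

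The effect of the knockout differed from that of S961 in 979 genes by the limma interaction term. Among the fixed genes these were Irs1 (difference of log2 fold changes -2.31, adjusted p = 0.000512), Igfbp1 (1.93, adjusted p = 0.0283), Insig2 (-1.31, adjusted p = 0.00885), and Angptl4 (-1.54, adjusted p = 0.0171).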

How the results depend on the processing

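No named gene that passed changed direction under the alternatives that were run, but the excess of genes that rose over genes that fell turned under median-ratio scaling (1055 and 1274) and without floxed replicate 3 (789 and 856), as did that of the difference from S961 under median-ratio scaling (442 and 592) and quantile normalization (481 and 500). With all RefSeq transcripts tested in place of 1 per symbol, 2082 rose and 1782 fell, 3864 in all. Leaving out 1 library at a time gave 545 to 1516 genes that rose, 530 to 1503 that fell, and 1075 to 3019 called. The highest counts came without L-IRSdKO replicate 1, and the lowest without L-IRSdKO replicate 2, while replicate 3 (598 and 560) and replicate 4 (591 and 544) gave like counts, and 684 fell without floxed replicate 2 and 621 without floxed replicate 4. For the difference from S961 the omissions gave 315 to 795 higher, 266 to 652 lower, and 581 to 1447 called, with the lowest counts without L-IRSdKO replicate 2 and the highest without L-IRSdKO replicate 1, 359 higher without L-IRSdKO replicate 4, and 365 without dex replicate 3 or dex plus S961 replicate 1. Within 20 kb, a FOXO1 peak lay near 37.1% of genes that rose and 40.7% of those that fell, and a GR peak near 34.4% and 46.7%. Within 100 kb the shares were 67.6% and 74.1%, and 65.1% and 77.1%. The other counts, under other pseudocounts, filters, scalings, variance priors, summed transcripts, and library weights, stayed within 1.5 times the reported ones. Of 140 named genes that passed, 88 did so in every setting. The replicate numbers share no more than a number, and with them as a block 756 rose and 686 fell, 1442 in all. The implied totals are low, the range of the values is flattened, and 1 library of 4 lies between the groups, so that small or single-gene differences near the threshold are uncertain.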
